A study of Rattus norvegicus with 24 samples.

Results

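The genes described here mark the vessel wall of the rat striatum: Edn1, Cldn5, Pecam1, Flt1, Kdr, Tek, Vwf, Pdgfrb, Rgs5 and Abcb1a. They were chosen by name, as all array probes carrying these 10 gene symbols, which gave 13 of 45598 probes and 10 of the 20902 genes tested. The study compared male Long Evans rats of 80 to 90 days in 3 groups. Saline rats had a saline injection on each of 5 days, acute rats had 4 saline injections and then 1 of MDPV, and chronic rats had 5 of MDPV. MDPV (methylenedioxypyrovalerone) is a synthetic cathinone that blocks the dopamine and noradrenaline transporters, and it was given intraperitoneally at 1 mg/kg. All 3 groups were injected on 5 days, and the left dorsal striatum was dissected by hand 24 h after the last injection. Total RNA was hybridised to 24 one-colour Agilent arrays, 8 per group, on 3 slides. The series states 6 per group, and 4 arrays of each group share title letters in pairs, so those pairs were averaged, which gave 18 units, 6 per group. The labels do not say what a shared letter means or that each unit is a separate animal. The p-values therefore measure the spread between these units, which may in part be technical.

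Capillaries of the brain are tubes of endothelial cells wrapped by pericytes, and arterioles carry smooth muscle in place of pericytes. Brain endothelium is sealed by tight junctions and lined with efflux pumps, which together form the blood-brain barrier. Endothelin, made and released by endothelium, acts on mural cells as one of the strongest known vasoconstrictors, while VEGF and angiopoietin receptors keep the endothelium alive and quiescent. In bulk tissue, fewer cells of a type and less RNA per cell cannot be told apart.

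Each value is a log2 signal relative to the 75th percentile of its array, so 0 is the signal of a probe brighter than 3 in 4 probes of its array, and differences are log2 differences of the group named first minus the second. Groups were compared with limma over all genes, with Benjamini-Hochberg adjustment and a threshold of 0.05. Between 50.7% and 71.3% of spots per array were well above background, and no spot was saturated. The dissection carried its labelled tissue: the mean of 10 striatal projection neuron markers lay between 4.03 and 5.87 on all arrays. The mean of 7 choroid plexus markers varied widely, from -4.36 to 2.30 over the arrays. That of 7 cortical neuron markers ran from -3.175 to 0.51 in saline, -1.16 to -0.17 in acute and -2.855 to 0.45 in chronic rats. That of 6 hypothalamus markers ran from -2.31 to 1.78, -2.12 to -0.95 and -2.41 to -1.58 in the same order. A value given within slides rests on few arrays: 3 of saline, 3 of chronic and 2 of acute rats on slide 1 and again on slide 2, but 4 of acute and 2 of either other group on slide 3.

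Most members had 1 probe, but Rgs5 and Vwf had a pair each above the detection limit. These pairs are shown because they let a member be read by more than 1 probe. The Vwf probes lie far apart on the transcript, but the Rgs5 probes overlap. The probes of Rgs5, a regulator of G-protein signalling that marks pericytes, begin at transcript positions 317 and 368 and share 9 bases, in capitals. The second has rn4 coordinates chr13:85480542-85482176, which span 1635 bases for a 60-base probe, so it crosses an intron.
Rgs5 317: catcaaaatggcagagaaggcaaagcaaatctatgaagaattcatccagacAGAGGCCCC
Rgs5 368: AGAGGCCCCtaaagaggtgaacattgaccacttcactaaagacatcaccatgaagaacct
The probes of Vwf, the clotting factor stored in endothelial granules, begin at positions 1278 (chr4:161759938-161759997 in rn4) and 8595 (chr4:161854554-161854613). Their G and C bases are in capitals, 36 and 32 of 60, because the G and C content of a probe enters the results on covariation.
Vwf 1278: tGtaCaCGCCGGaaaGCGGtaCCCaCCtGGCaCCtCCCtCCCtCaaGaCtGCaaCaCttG
Vwf 8595: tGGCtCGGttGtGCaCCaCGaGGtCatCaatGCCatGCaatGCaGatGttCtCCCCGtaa
The brighter probe by mean, 368 for Rgs5 and 1278 for Vwf, represents the gene. Over the 24 arrays the Rgs5 pair had r = 0.83, with 0.91, 0.85 and 0.72 within slides 1, 2 and 3. The Vwf pair had r = 0.63, with 0.65, 0.73 and 0.56 within the slides. Both Vwf probes also followed how each array's signal depended on probe G and C content (r = 0.86 and 0.83, described below). The r of the Vwf pair therefore does not show that both probes follow Vwf RNA. Flt1 also had a second probe, at position 4406, which was well above background on 3 of 24 arrays and was left out.

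No member passed the adjusted threshold in any comparison, and neither did any of the other genes: 0 of 20902, or 0%, in each of the 3 comparisons and in the F test over the groups. At an unadjusted p under 0.05, 0.818% of all genes were higher and 0.832% lower in acute than in saline, 1.27% and 1.67% in chronic than in saline, and 1.01% and 1.47% in chronic than in acute rats. Among the 10 members, Edn1 was higher and Abcb1a lower at that level in the first comparison, Edn1 was higher in the second, and none passed in the third. The members were chosen with earlier results for Edn1 known, so these counts support nothing by themselves. In the plot of differences, the intervals of the other 8 members all include 0, in every comparison.

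**Figure D1:**
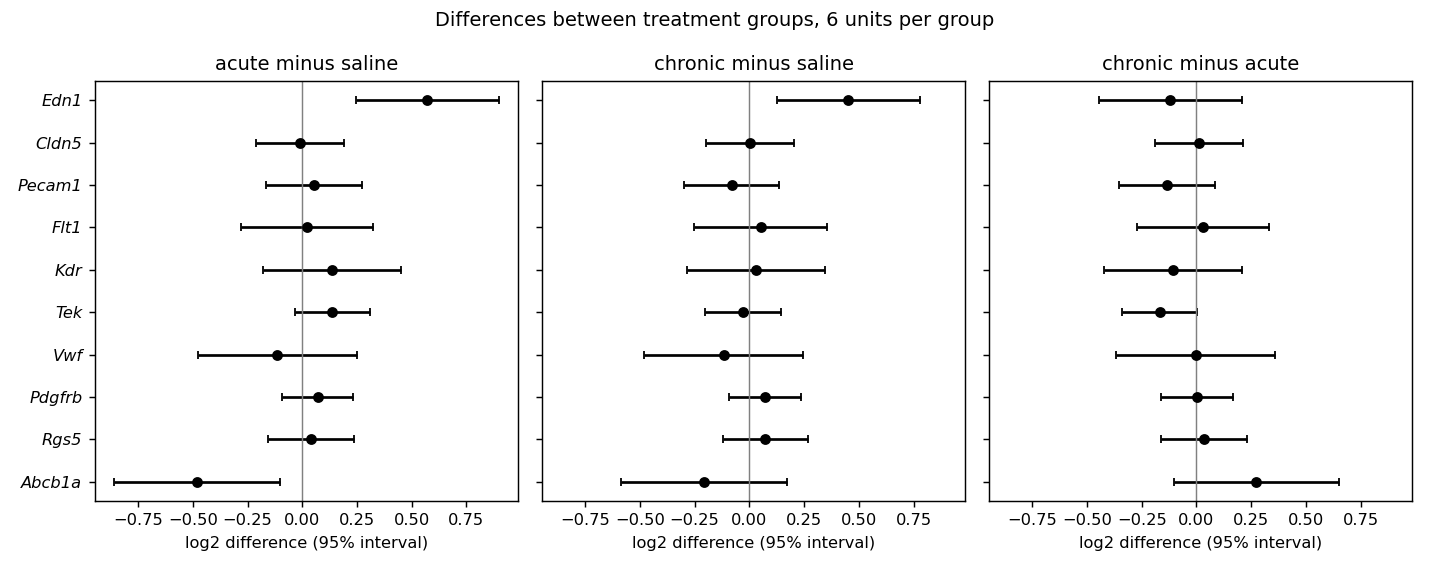
Log2 difference of each member (points) with its 95% interval (bars) from limma on 6 units per group, in 3 panels, 1 per comparison. The intervals of Edn1 in acute and chronic minus saline (0.24 to 0.90 and 0.13 to 0.78) and of Abcb1a in acute minus saline (-0.86 to -0.10) lie off 0, but none of the 3 differences passed adjustment over all genes.

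Edn1, the gene of the endothelin-1 precursor (1 probe, rn4 chr17:28304023-28304082, minus strand), had the lowest values in saline rats. Its arrays ran from -4.15 to -3.06 with a median of -3.43 in saline, from -3.52 to -2.50 with a median of -2.94 in acute, and from -3.60 to -2.21 with a median of -3.08 in chronic rats. Of the 8 acute arrays, 7 lay above every saline array, as did 4 of the 8 chronic arrays, so the groups overlapped. Over units (n = 6 per group, error as SD), the saline mean was -3.48 ± 0.29, the acute mean -2.91 ± 0.25 and the chronic mean -3.03 ± 0.30. Acute exceeded saline by 0.57 (SE 0.16, limma unadjusted p = 0.0018, adjusted p = 0.999), the 5th smallest p of the comparison. Chronic exceeded saline by 0.45 (SE 0.16, limma unadjusted p = 0.0095, adjusted p = 1.0). Both MDPV groups were set against the same saline rats, so these are not separate observations. Acute and chronic were the neighbours that did not differ beyond their spread (-0.12, 95% interval -0.45 to 0.21).

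The signal of Edn1 was dim. Its probe was well above background on 17 of 24 arrays (4 saline, 6 acute and 7 chronic), so a part of the saline values lies near the detection limit. The excess of acute over saline was 0.67 on slide 1, 0.85 on slide 2 and 0.11 on slide 3. The excess of chronic over saline was 0.86, 0.07 and 0.46 on the same slides. Arrays of 1 group and 1 title letter also lay far apart: of 6 such pairs, 3 had gaps above 0.57, and the largest, 1.39, was between chronic replicates 6 (-3.60) and 8 (-2.21). Averaging the pairs narrowed the chronic range to between -3.36 and -2.55 over units. The SD, SE and p given for Edn1 rest on that averaging. Over all genes, arrays of 1 letter deviated from their group in opposite directions on the whole (consensus correlation -0.36). Averaging such arrays narrows the SD, so the unit SD understates the spread between arrays. Over 24 independent arrays, Edn1 differed from saline by 0.55 in acute and 0.46 in chronic rats (limma adjusted p 0.9998 and 0.996). Under normexp background correction, which pulls dim probes together, the differences were 0.36 and 0.31, and they kept their sign with every left-out unit and every alternative that measured the gene, with no adjusted p below 0.548. The stricter filter on dim probes, detection on all arrays of a group, dropped Edn1.

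**Figure D2:**
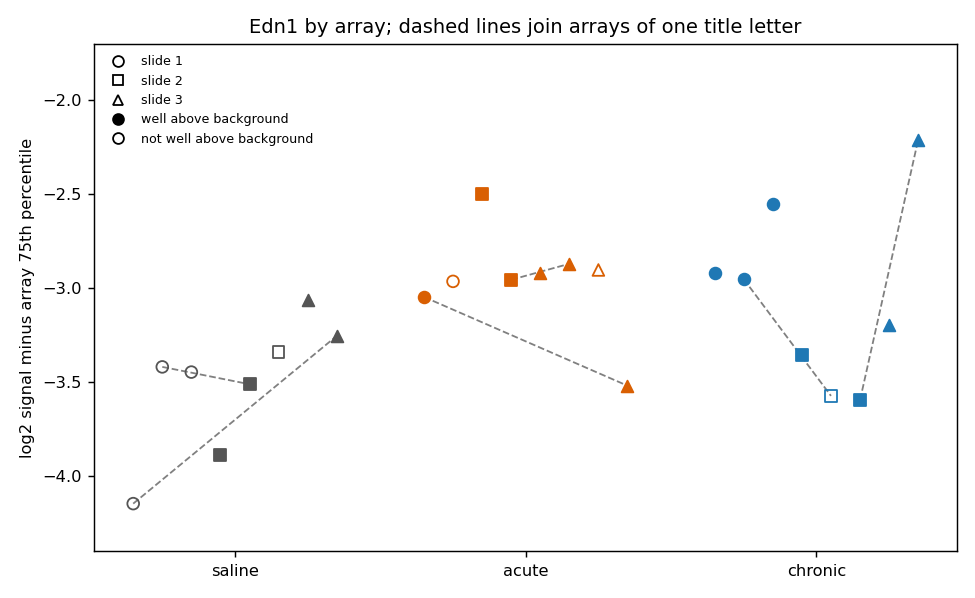
Edn1 on each of the 24 arrays, with group on the x axis, arrays ordered by slide within it, and log2 signal minus the array's 75th percentile on the y axis; filled symbols were well above background and dashed lines join arrays of 1 title letter. Saline arrays reach no higher than -3.06, acute replicate 8 (-3.52) and chronic replicates 5 (-3.57) and 6 (-3.60) lie among them, and chronic replicates 6 and 8, of 1 letter, span 1.39.

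Edn1 was also set beside markers of other cells over the 18 units. Its correlation with the mean of 7 blood cell markers was r = -0.62 (permutation p = 0.0065, adjusted over 70 relations 0.151) and rho = -0.68 (permutation p = 0.0026, adjusted 0.062), and r = -0.51 without the 2 farthest units. Within slides 1, 2 and 3 this r was -0.50, -0.56 and -0.12. All 7 blood markers had lower means after acute MDPV than after saline, with a median difference of -0.34 beside 0.01 over all genes. In chronic minus saline 6 blood markers were lower and 1 higher, with a median of -0.10 beside 0.00. Their mean per array ran from -1.18 to -0.04 for saline rats, from -1.92 to -0.38 for acute and from -1.65 to -0.20 for chronic ones. With the striatal neuron markers, Edn1 had r = 0.55 (permutation p = 0.019, adjusted 0.26) and rho = 0.44 (permutation p = 0.067, adjusted 0.471), but 0.20 without the 2 farthest units. All 10 striatal markers had higher means than saline in both MDPV groups. Their median differences were 0.26 in acute and 0.16 in chronic rats, beside 0.01 and 0.00 over all genes. None of them had a limma unadjusted p under 0.05. Of the marker lists of other tissues, choroid plexus had the largest median differences from saline: 7 of 7 had lower means than saline in both MDPV groups, with median differences of -1.06 and -1.73 beside 0.01 and 0.00 over all genes. At an unadjusted p under 0.05, 2 and 4 of the 7 were lower, beside 0.832% and 1.67% of all genes, and none passed the threshold. Their relation with Edn1 was r = -0.38 (permutation p = 0.116, adjusted 0.669) and rho = -0.33 (permutation p = 0.187, adjusted 0.690), and -0.09 without the 2 farthest units. Of 6 hypothalamus markers, 5 were lower than saline in both MDPV groups, with median differences of -0.64 in acute and -0.76 in chronic rats. Of 7 cortical neuron markers, 6 were higher in acute and 7 in chronic rats, with medians of 0.34 and 0.55. No marker of these 2 lists had a limma unadjusted p under 0.05, and their relations with Edn1 were not computed. None of the 3 relations given here passed adjustment, and the part of these tissues in the Edn1 difference was not tested.

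The other genes listed under the endothelin pathway, all 8 of which were measured, showed no call either. A place on that list, as for Ecel1, does not show a part in endothelin signalling. None passed the threshold or an unadjusted p of 0.05 in a comparison. The medians of their differences were -0.02, -0.21 and -0.18 in acute minus saline, chronic minus saline and chronic minus acute, beside 0.01, 0.00 and -0.01 over all genes. Ednra, the receptor of mural cells through which endothelin constricts vessels, differed by 0.09 (SE 0.33) and -0.40 (SE 0.33) from saline in acute and chronic rats. Ednrb, a receptor carried in brain mostly by astrocytes and endothelium, differed by -0.06 (SE 0.25) and -0.30 (SE 0.25). Of the converting enzymes that cut the precursor, Ece1 differed by -0.25 (SE 0.20) and -0.13 (SE 0.20), and Ece2 by 0.02 (SE 0.20) and -0.31 (SE 0.20). Mme, the peptidase neprilysin that degrades endothelin among other peptides, differed by 0.27 (SE 0.27) and 0.15 (SE 0.27). The other ligand genes, Edn2 and Edn3, differed from saline by 0.18 and -0.14 in acute and by -0.40 and 0.15 in chronic rats (SE 0.37 for Edn2 and 0.21 for Edn3), and Ecel1 by -0.12 and -0.07 (SE 0.12 each). Ednra, Edn2 and Ece1 were dim, with saline means of -4.185, -4.186 and -3.89, below the -3.48 of Edn1. A lack of difference in these dim genes therefore says little.

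**Figure D3:**
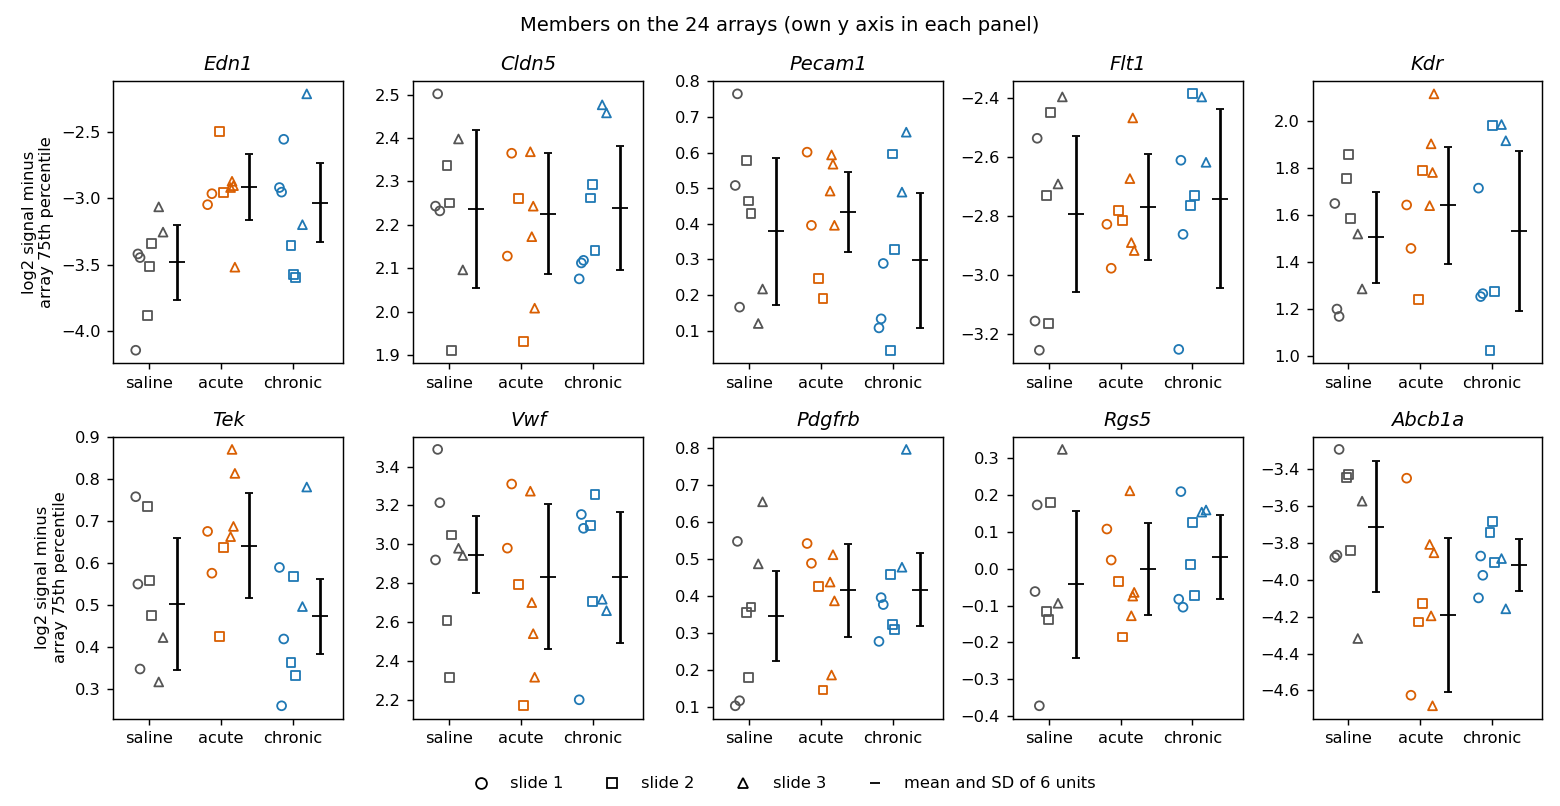
Log2 signal minus the array's 75th percentile (y, a separate scale in each panel) of the 10 members on 24 arrays by group (x), with the slide as symbol and the mean and SD of 6 units in black. Saline arrays of Edn1 reach no higher than -3.06, and the groups overlap in each of the 10 panels.

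None of the receptors that endothelium uses to read VEGF and angiopoietins passed the test. Kdr (VEGF receptor 2, the main signalling receptor) ran from 1.17 to 1.86 with a median of 1.55 in saline, from 1.24 to 2.12 with a median of 1.71 in acute and from 1.03 to 1.99 with a median of 1.496 in chronic rats. Acute minus saline was 0.14 (SE 0.15, 95% interval -0.18 to 0.45), and within slides it was 0.21, -0.22 and 0.46. Flt1 (VEGF receptor 1, largely a decoy for the ligand) ran from -3.26 to -2.40 in saline, from -2.98 to -2.47 in acute and from -3.25 to -2.39 in chronic rats, and was well above background on 19 of 24 arrays. Its differences from saline were 0.02 and 0.05 (SE 0.14 each), and their sign depended on the background correction.

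Tek (the angiopoietin receptor Tie2) had medians of 0.51, 0.67 and 0.46 in saline, acute and chronic rats, within ranges of 0.32 to 0.76, 0.42 to 0.87 and 0.26 to 0.78. Acute rats were highest, and 2 of their 8 arrays lay above all saline arrays. Chronic minus acute was -0.17 (SE 0.08, limma unadjusted p = 0.056, adjusted p = 0.961) and was negative on all 3 slides, at -0.20, -0.11 and -0.12. Acute minus saline was 0.14 (SE 0.08, 95% interval -0.03 to 0.31), with 0.07, -0.06 and 0.39 within slides.

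Of 16 listed ligands and receptors of the VEGF, angiopoietin and PDGF families, 13 were measured and none passed the threshold. In acute minus saline 9 were lower and 4 higher, with a median of -0.13 beside 0.01 over all genes, and 2 of the lower ones had an unadjusted p under 0.05, beside 0.832% of all genes. These were Angpt1, the Tie2 agonist made by pericytes (-0.50, SE 0.22, limma unadjusted p = 0.036), and Vegfb (-0.24, SE 0.11, limma unadjusted p = 0.038), both with adjusted values near 1. In chronic minus saline 11 were lower and 2 higher, with a median of -0.16 beside 0.00. Vegfa, the ligand of Kdr and Flt1, differed by 0.07 and -0.04 (SE 0.09 each). Figf, also called Vegfd, had the largest positive acute difference of the list at 0.55 (SE 0.39), but its signal was dim, with a saline mean of -4.05.

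Among junction and adhesion genes, Cldn5, the main claudin of brain endothelial tight junctions, showed little difference between groups. Its medians were 2.25, 2.21 and 2.20 in saline, acute and chronic rats, all arrays lay between 1.91 and 2.50, and its differences were -0.01, 0.00 and 0.01 (SE 0.10 each). The 95% interval of acute minus saline, -0.21 to 0.19, bounds a change in either direction. Pecam1 (CD31), an adhesion molecule of endothelial contacts, had medians of 0.45, 0.44 and 0.31, and chronic minus acute was -0.13 (SE 0.10, 95% interval -0.35 to 0.08). Vwf had medians of 2.96, 2.75 and 2.90, and it differed from saline by -0.11 and -0.12 (SE 0.17 each). Its second probe, at 8595, gave 0.01 and 0.08 (SE 0.11 each), so the probes of Vwf disagreed in sign.

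The barrier list, of junction proteins and transporters, was measured in full, 20 of 20, and none passed the threshold. In acute minus saline 10 were higher and 10 lower, with a median of 0.00. In chronic minus saline 6 were higher and 14 lower, with a median of -0.02. In chronic minus acute 2 were lower at an unadjusted p under 0.05, beside 1.47% of all genes. These were Slc38a5, an amino acid transporter (-0.41, SE 0.14, limma unadjusted p = 0.0080, adjusted p = 0.961), and Slco1a2, an organic anion carrier (-0.30, SE 0.14, limma unadjusted p = 0.042). Slc2a1, the glucose transporter of the barrier, differed from saline by -0.04 and -0.06 (SE 0.08 each), and Mfsd2a, its lipid transporter, by -0.05 and -0.02 (SE 0.10 each).

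Abcb1a, which encodes the efflux pump P-glycoprotein, was detected on the fewest arrays of all members. Its probe, with 10 G or C bases of 60, was well above background on 11 of 24 arrays (3 saline, 5 acute and 3 chronic). Values ran from -4.32 to -3.30 with a median of -3.71 in saline, from -4.68 to -3.45 with a median of -4.16 in acute, and from -4.16 to -3.69 with a median of -3.90 in chronic rats. Acute rats were lowest by mean, although more of their arrays passed the detection call. Acute minus saline was -0.48 (SE 0.18, limma unadjusted p = 0.016, adjusted p = 0.999), and it was negative on all slides, at -0.36, -0.61 and -0.19. Quantile normalization gave -0.96, the authors' values gave -0.95 and normexp gave -0.34, and the cause of this spread was not tested. The paralogue Abcb1b differed by -0.04 (SE 0.15).

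The mural genes did not separate the groups either. Pdgfrb, the PDGF receptor through which endothelium recruits pericytes, ran from 0.10 to 0.65 with a median of 0.36 in saline, from 0.15 to 0.54 with a median of 0.43 in acute and from 0.28 to 0.80 with a median of 0.39 in chronic rats. Its differences from saline were 0.07 and 0.07 (SE 0.08 each). Rgs5 had medians of -0.08, -0.05 and 0.07, with differences of 0.04 and 0.07 (SE 0.09 each). Its second probe, at 317, gave 0.00 and 0.07 (SE 0.09 each). Of 20 other pericyte and smooth muscle markers 19 were measured and none passed the threshold. In acute minus saline 6 were higher and 13 lower, with a median of -0.04, and in chronic minus saline 13 were higher and 6 lower, with a median of 0.07. At an unadjusted p under 0.05 in acute minus saline, 1 of the 19 was higher and 1 lower, beside 0.818% and 0.832% of all genes. The higher was Foxc1, a transcription factor of mural cells (0.29, SE 0.13, limma unadjusted p = 0.043), and the lower was Lmod1, a smooth muscle actin nucleator (-0.69, SE 0.26, limma unadjusted p = 0.017). Next in p were Kcnj8 (0.10, SE 0.17) and Abcc9 (-0.23, SE 0.19), which encode subunits of 1 potassium channel of pericytes. In chronic minus saline none reached that level, and the smallest p belonged to Foxc1 (0.23, SE 0.13), Abcc9 (0.29, SE 0.19), Lmod1 (-0.32, SE 0.26) and the receptor Notch3 (-0.20, SE 0.19). In chronic minus acute 1 was higher, Abcc9 (0.53, SE 0.19, limma unadjusted p = 0.011), beside 1.01% of all genes, followed by Lmod1 (0.37, SE 0.26), while Cspg4, the pericyte proteoglycan NG2, was -0.19 (SE 0.15) and Kcnj8 -0.18 (SE 0.17).

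Of 28 other endothelial identity genes 24 were measured, and none passed the threshold. In acute minus saline 13 were higher and 11 lower with a median of 0.02, the same division as in chronic minus saline, where the median was 0.01. The adhesion molecule Icam2 was 0.49 in chronic minus saline (SE 0.22, limma unadjusted p = 0.039, adjusted p = 1.0), 1 of 24 at that level beside 1.27% of all genes, and no other gene of the list reached it in any comparison. In acute minus saline the smallest p belonged to the transcription factor Sox7 (0.47, SE 0.24), the sphingolipid receptor S1pr1 (0.16, SE 0.15), Plvap (-0.38, SE 0.36), a protein of leaky endothelium, and Adgrl4 (-0.10, SE 0.10). In chronic minus saline, Icam2 was followed by thrombomodulin, Thbd (0.43, SE 0.28), and the lower genes of smallest p were Sox18 (-0.09, SE 0.08) and Plvap (-0.39, SE 0.36). In chronic minus acute they were Icam2 (0.43, SE 0.22), Tie1 (0.32, SE 0.19), S1pr1 (-0.26, SE 0.15) and Sox7 (-0.37, SE 0.24). Of 15 genes that endothelium induces under altered flow or inflammation, 10 were measured, and 9 of them were higher in acute and 8 in chronic rats than in saline rats, with medians of 0.14 and 0.25 beside 0.01 and 0.00 over all genes. Both counts use the same saline units. The list was also chosen with earlier results of these data known, so the counts support nothing by themselves. None of the 10 genes passed the threshold. Ctgf, a matricellular protein induced by stretch, was nearest to it in both: 0.57 (SE 0.18, limma unadjusted p = 0.0048, adjusted p = 0.999) and 0.49 (SE 0.18, limma unadjusted p = 0.014, adjusted p = 1.0). It was 1 of 10 genes of the list at an unadjusted p under 0.05 in either comparison, beside 0.818% and 1.27% of all genes. Ptgs2, the inducible cyclooxygenase, was 0.35 in acute minus saline (SE 0.17, limma unadjusted p = 0.057), and Icam1 (-0.06, SE 0.14) was the gene on the lower side. In chronic minus saline, Nos3, the endothelial nitric oxide synthase, was 0.25 (SE 0.16), and the lower genes were Klf4 (-0.08, SE 0.18) and Vcam1 (-0.04, SE 0.18). In chronic minus acute, the smallest p belonged to Icam1 (0.24, SE 0.14), Nos3 (0.20, SE 0.16), Vcam1 (-0.17, SE 0.18) and Klf4 (-0.13, SE 0.18).

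Array by array, the members did not vary as 1 group. Over all 24 arrays the SD was 0.16 for Cldn5 and Rgs5, 0.17 for Tek and Pdgfrb, 0.20 for Pecam1, 0.27 for Flt1, 0.31 for Kdr, 0.35 for Abcb1a, 0.37 for Vwf and 0.44 for Edn1, beside a median of 0.28 over all genes. Of the 45 pairs of members, 5 passed an adjusted permutation p of 0.05 by Pearson's r over the 18 units. They were Kdr with Tek (r = 0.70, permutation p = 0.0015, adjusted 0.038; rho = 0.69, permutation p = 0.0023, adjusted 0.035), Pecam1 with Tek (r = 0.67, adjusted 0.038), Edn1 with Abcb1a (r = -0.67, adjusted 0.038), Flt1 with Rgs5 (r = 0.65, adjusted 0.038) and Pecam1 with Kdr (r = 0.63, adjusted 0.049). By rho, Kdr with Tek and Edn1 with Abcb1a (rho = -0.79, permutation p = 0.00023, adjusted 0.010) passed, and the others had adjusted permutation p of 0.107, 0.115 and 0.110 in the order given above. Without the 2 farthest units, r was 0.59, 0.74, -0.61, 0.47 and 0.65 for the 5 pairs in that order.

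Within slides 1, 2 and 3 the pair of Kdr and Tek had r = 0.79, 0.80 and 0.70, and Flt1 with Rgs5 had 0.83, 0.80 and 0.62. Both pairs thus held their direction and most of their size on each slide. Pecam1 with Tek had 0.60, 0.56 and 0.81. Pecam1 with Kdr had 0.06, 0.75 and 0.64, so slide 1 did not show it. Edn1 with Abcb1a, a pair of dim probes, had -0.28, -0.85 and -0.41. Within the saline, acute and chronic units, Flt1 with Rgs5 had 0.83, 0.04 and 0.87, so the acute units did not show it. In the same order, Kdr with Tek had 0.69, 0.98 and 0.68, and Pecam1 with Tek 0.85, 0.75 and 0.27. Pecam1 with Kdr had 0.65, 0.76 and 0.62, and Edn1 with Abcb1a -0.71, -0.38 and -0.75. With group means removed, r was 0.71, 0.64, -0.52, 0.65 and 0.63 for Kdr with Tek, Pecam1 with Tek, Edn1 with Abcb1a, Flt1 with Rgs5 and Pecam1 with Kdr, and 0 of 45 pairs passed. The pericyte pair, Pdgfrb with Rgs5, had r = 0.56 (permutation p = 0.018, adjusted 0.0998) and rho = 0.38 (permutation p = 0.114, adjusted 0.468), but 0.04 without the 2 farthest units.

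**Figure D4:**
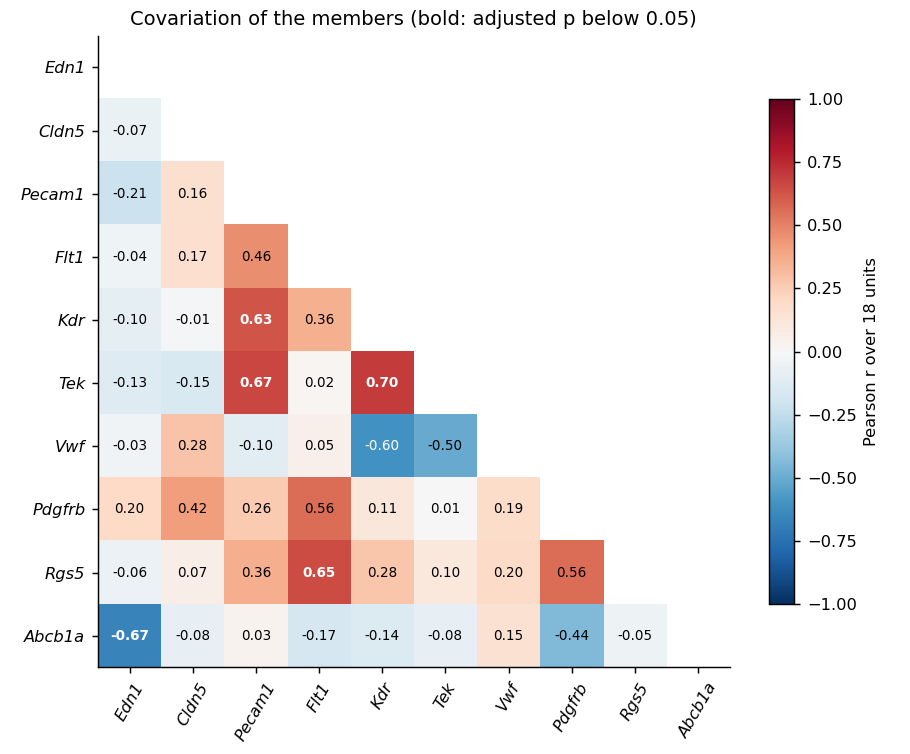
Pearson r of each pair of members over the 18 units (colour and printed value), with the 5 pairs of adjusted permutation p below 0.05 in bold. Kdr, Tek and Pecam1 form a positive triangle, Vwf is negative with Kdr (-0.60) and Tek (-0.50), and Edn1 is negative with Abcb1a (-0.67).

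Vwf ran against the receptor Kdr, with r = -0.60 (permutation p = 0.0078, adjusted 0.059) and rho = -0.69 (permutation p = 0.0020, adjusted 0.035), at -0.73, -0.71 and -0.71 within slides. With Tek it had r = -0.50 (permutation p = 0.034, adjusted 0.168), but with the receptor Flt1 r = 0.05 (permutation p = 0.83, adjusted 0.962). Beside these relations, the arrays differed in how the signal depended on the G and C content of the probe. The slope of the values over the 26259 kept probes ran from -0.27 to 0.34 log2 units per 10 G or C bases across arrays, with overlapping ranges and medians of -0.01 for the saline, -0.10 for the acute and 0.08 for the chronic group. Vwf followed this slope over the 18 units with r = 0.84 (permutation p = 3e-05, adjusted over 70 relations 0.0021) and rho = 0.78 (permutation p = 0.00014, adjusted 0.0098), with 0.81, 0.92 and 0.84 within slides, and 0.72 without the 2 farthest units. Both Vwf probes did so over the 24 arrays, with r = 0.86 at 1278 and 0.83 at 8595. Tek ran the other way, with r = -0.72 (permutation p = 0.0012, adjusted 0.040) and rho = -0.74 (permutation p = 0.00075, adjusted 0.026), and Kdr had r = -0.57 (permutation p = 0.014, adjusted 0.238) and rho = -0.61 (permutation p = 0.0086, adjusted 0.151). Their probes hold 27 and 24 G or C bases of 60, close to the median of 26. Edn1 had r = 0.16 (permutation p = 0.53, adjusted 0.935) and rho = 0.03 (permutation p = 0.90, adjusted 0.961).

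**Figure D5:**
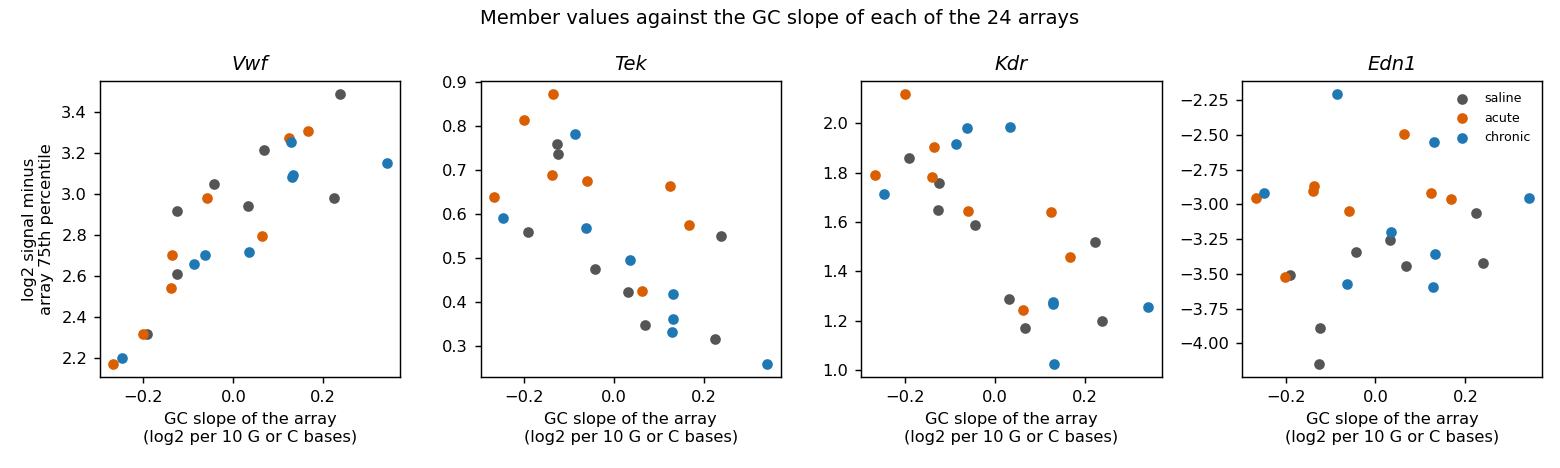
Values of Vwf, Tek, Kdr and Edn1 (y, log2 signal minus the array's 75th percentile, a separate scale in each panel) against the slope of each array's values on probe G and C content (x, log2 per 10 bases), 24 arrays coloured by group. Vwf rises with the slope (r = 0.86), Tek and Kdr fall with it (r = -0.70 and -0.72), and Edn1 shows little relation (r = 0.13).

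When each array's median deviation at a given G and C count was subtracted, Kdr with Vwf had r = -0.42 (adjusted permutation p = 0.255). This alternative was chosen after the slope was seen. Kdr with Tek had 0.67, Pecam1 with Tek 0.72, Pecam1 with Kdr 0.68 and Flt1 with Rgs5 0.65, the 4 pairs that then passed. Edn1 with Abcb1a had -0.59 (adjusted permutation p = 0.091). The probes of the 4 pairs hold 27 G or C bases, or 24 for Kdr, near the median of 26. The correction takes little from such probes, so it could not test whether these pairs follow the slope. The Edn1 differences from saline were 0.55 in acute and 0.46 in chronic rats after the correction, close to the uncorrected 0.57 and 0.45. With 22 G or C bases in the Edn1 probe, that closeness tests little either.

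Among the 50 genes whose values over the 24 arrays were most like a member's, vessel genes numbered 5 for Pdgfrb, 4 each for Pecam1 and Rgs5, 3 for Flt1, 2 for Tek, 1 for Vwf and 0 for Edn1, Cldn5, Kdr and Abcb1a. The background is 72 vessel genes among 13550 genes with a symbol. Vwf lay nearest to Nlgn2, a synaptic adhesion gene (r = 0.97), and its first 50 genes all had r of at least 0.915. Kdr was nearest to Tmprss5, Frmd5 and Snap23 (r = 0.91, 0.90 and 0.88), and Tek to Kif5b, Zfp266 and Trak2 (0.89, 0.86 and 0.85). Edn1 had weaker neighbours, Btg3, Sbf2 and Dzip1l (0.68, 0.68 and 0.63). Flt1 counted Rgs5 second (0.71) after Ranbp10 (0.73) and before Asgr2 (0.70). Pdgfrb counted Tagln, a smooth muscle protein, second (0.73), between Srgn (0.80) and Fmnl3 (0.72). Pecam1 was nearest to Me2, Sik1 and Pias4 (0.81, 0.80 and 0.78), Cldn5 to Gcat, Fancc and Fzd9 (0.80 each), and Rgs5 to Gsr, Rbpms and Zbtb37 (0.81, 0.77 and 0.76). Abcb1a was nearest to Rchy1, Ddx3y and Slc6a12 (0.77, 0.66 and 0.65). These are descriptions over arrays that share slides and the slope above.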

How the data were processed

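Processed signals, mean spot signals and local backgrounds are intensities made by the authors with Agilent Feature Extraction (10.1.1.1 per the file headers, 10.7 per the submitters' processing notes), with no scaling between arrays. The flags used were deposited as scores of 0 or 1. The authors' deposited log2 value table ranks as the processed signals do, its medians lie between 7.23 and 7.24, and its method is not given in the sources used here. Its minimum was 2.68 and its maximum 18.06 on every array, as in values set to 1 shared distribution. The authors' values and quantile normalization are thus not clearly separate alternatives. Coordinates of probes come from the deposited annotation, build rn4 per the file headers.

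Here, log2 signals minus each array's 75th percentile were used, outlier spots left out, probes kept if well above background on a 0.5 share of a group's arrays (26259), and the brightest probe taken per gene. limma 3.58.1 compared all 3 groups in 1 fit. Correlations used 100000 two-sided permutations. Both were tested on simulated data. Members and lists were chosen with earlier results of these data known; the text names all members, genes of the endothelin, VEGF and barrier lists, the 2 smallest p per direction of the other vessel lists (other tissues by counts only), and the 3 nearest genes of each member. Alternatives were other normalizations, filters, array units, slide blocks and left-out units. The number of arrays limits the precision.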

Additional observations from a re-analysis of the deposited data

Results flagged for a closer look

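Pdgfrb on chronic replicate 8 (0.80, or 0.7955 before rounding) stood apart from the other 7 chronic arrays, which lay between 0.28 and 0.48. It was the single array to do so among 30 sets of 8 arrays examined, and chance alone marks about 1 in 20 such sets. The same array held the highest chronic values of Edn1 (-2.21), Pecam1 (0.66) and Tek (0.78).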

How the results depend on the processing

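No alternative and no left-out unit gave a gene past the adjusted threshold in any comparison. Edn1, Abcb1a and Pecam1 kept their direction in all 3 comparisons under every setting that gave them a value; the stricter filter on dim probes dropped Edn1, Flt1 and Abcb1a. The 5 correlated pairs were not stable in their call: 0 pairs passed with group means removed, under quantile normalization, under normexp with quantile normalization and with the authors' values, 1 passed without the 2 farthest units, and 6 passed both over 24 independent arrays and with slide means removed, of which 3 were among the 5 each time. The 4 pairs that passed after correction for probe G and C content, an alternative chosen after the data were seen, were all among the 5. Their probes lie near the median G and C count, where the correction takes little.

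Differences near 0 changed sign. For chronic minus acute, Vwf was 0.029 under quantile normalization, 0.030 under normexp, 0.050 with the authors' values, 0.098 over 24 arrays, 0.072 with slide as a block, 0.16 with the letter as a random block and 0.038 over the mean of its probes. Under normexp, Flt1 was -0.14, -0.16 and -0.013 in acute minus saline, chronic minus saline and chronic minus acute, and in chronic minus saline Kdr was -0.036 and Tek 0.0030. With slide as a block, acute minus saline was -0.053 for Flt1, -0.0021 for Pdgfrb and -0.029 for Rgs5. With the letter as a random block it was -0.0082 for Flt1 and -0.035 for Rgs5, and over 24 arrays it was -0.0049 for Rgs5. Chronic minus saline for Cldn5 was -0.0042 over 24 arrays, -0.0042 with the slide block and -0.0080 with the letter block. After the G and C correction, Cldn5 was 0.010, -0.019 and -0.029 in the same order of comparisons, and Pdgfrb was -0.0065 in chronic minus acute.

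Leaving out 1 unit at a time moved acute minus saline between -0.076 and 0.024 for Cldn5, -0.072 and 0.090 for Flt1, and -0.025 and 0.085 for Rgs5. It moved chronic minus saline between -0.063 and 0.034 for Cldn5, -0.042 and 0.15 for Flt1, -0.061 and 0.13 for Kdr, -0.068 and 0.016 for Tek, and -0.18 and 0.0089 for Vwf. It moved chronic minus acute between -0.035 and 0.046 for Cldn5, -0.039 and 0.13 for Flt1, -0.048 and 0.029 for Pdgfrb, and -0.083 and 0.12 for Vwf. The cause of these changes was not tested. Edn1, Flt1 and Abcb1a were well above background on 17, 19 and 11 of 24 arrays, which limits how far their differences can be read. No paired analysis was possible because the labels give the groups no shared replicate numbers.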

Other observations

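Arrays of 1 group that share a title letter did not lie close together. Over the 26259 kept probes reduced to 20902 genes, the consensus correlation of the letter in limma was -0.36, which says that such arrays deviated from their group in opposite directions on the whole. For Vwf the 6 gaps within letters ran from 0.02 to 1.17 with a median of 0.56, and for Kdr the median was also 0.56, beside largest group differences of 0.12 and 0.14. For Cldn5, all 6 gaps exceeded its largest group difference of 0.01. For Abcb1a, 0 of 6 gaps exceeded its largest group difference of 0.48. The first principal component of the 24 arrays held 23.9% of the variance and had r = 0.86 with the slope of each array on probe G and C content, as a description over arrays.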
